A study of Mus musculus with 2 samples.

Results

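The regions described here are the unusually wide stretches of open chromatin in the hippocampus of young male mice. They were chosen by measured values: a peak of replicate 1 entered if it was 600 bp or wider and overlapped a replicate 2 peak of 400 bp or wider. By this choice 2760 of the 115072 replicate 1 peaks were wide regions. The comparison set was the 71180 replicate 1 peaks under 600 bp that overlapped any replicate 2 peak, called narrower peaks below. Width in both replicates set the membership, so the widths are a description. The deposited value and the footprints come from the same libraries and are described too, while gene annotation and sequence did not enter the choice.

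The assay was DNase-seq, in which DNase I cuts accessible DNA in nuclei and the cut ends are sequenced. The only group was tissue of male B6CASTF1/J mice, first-generation hybrids between the strains C57BL/6 and CAST/EiJ, aged 14 days. The labels name a hippocampal layer but do not say which one. It had 2 biological replicates that carry the same donor identifier and labels that speak of 3 males, so animals may have been pooled. There was no control group, so no comparison between conditions was possible, and regions within 1 tissue are not replicates of a condition. Promoter peaks stood in both replicates at 6 of 6 neuronal, 4 of 4 astrocyte and 3 of 4 oligodendrocyte lineage markers, and at 1 of 3 microglial and 1 of 3 endothelial markers. In replicate 1 alone the microglial and endothelial counts were 3 and 2, and in replicate 2 alone 1 and 1. Over all 21911 protein-coding genes, 13962 had a peak shared by the replicates centred within 1000 bp of a start site.

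Most open regions are short, because a few bound proteins displace about a nucleosome's length of DNA. Longer open stretches are known from promoters in CpG islands, which are GC-rich segments that keep their CpG dinucleotides because they are mostly unmethylated in the germ line. Protein bound to DNA shields it from DNase I and leaves a footprint, a short run of low cutting inside an open region.

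A set of 3 sequences shows what the widest regions look like in a promoter, in coding sequence away from promoters, and between genes. Each is the central stretch of 300 bp of the region, from RefSeq GRCm38.p6, which is mm10, on the plus strand. Capitals mark bases inside replicate 1 footprints. The Ubtf stretch, at chr11:102318061-102318360, held 36 CpG dinucleotides and 79% GC. The Pcdh10 stretch, at chr3:45380541-45380840, held 23 CpG dinucleotides, and all 300 of its bases were annotated as coding. The stretch nearest to Gm43177, at chr5:52114521-52114820, lay between genes and held 14 CpG dinucleotides.
Ubtf: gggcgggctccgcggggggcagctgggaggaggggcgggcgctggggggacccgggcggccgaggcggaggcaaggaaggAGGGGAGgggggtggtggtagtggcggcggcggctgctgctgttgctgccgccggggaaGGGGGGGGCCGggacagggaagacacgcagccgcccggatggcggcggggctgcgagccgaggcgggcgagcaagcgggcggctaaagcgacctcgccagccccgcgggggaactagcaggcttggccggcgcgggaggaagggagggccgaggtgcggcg
Pcdh10: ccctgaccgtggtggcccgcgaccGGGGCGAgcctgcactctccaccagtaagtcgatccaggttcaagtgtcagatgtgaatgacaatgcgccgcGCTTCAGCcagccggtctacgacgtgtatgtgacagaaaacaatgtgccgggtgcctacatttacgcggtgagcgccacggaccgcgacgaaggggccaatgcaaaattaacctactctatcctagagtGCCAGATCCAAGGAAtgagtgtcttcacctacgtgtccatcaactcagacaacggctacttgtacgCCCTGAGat
Gm43177: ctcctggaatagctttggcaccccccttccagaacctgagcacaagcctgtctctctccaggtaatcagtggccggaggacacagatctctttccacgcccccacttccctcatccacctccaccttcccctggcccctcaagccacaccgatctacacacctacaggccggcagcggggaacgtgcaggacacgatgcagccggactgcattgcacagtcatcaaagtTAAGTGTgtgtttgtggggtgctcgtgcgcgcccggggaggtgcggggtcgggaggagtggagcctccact
Replicate 1 had a median of 3 footprints in the central 300 bp of wide regions and 2 in those of narrower peaks. At promoters the median was 3 in both sets, and outside promoters it was 3 and 2. Narrower peaks of 400 bp or wider also had a median of 3. The window is longer than the median narrower peak, which was 240 bp wide. Replicate 1 had 2 footprints in the Ubtf stretch, 4 in Pcdh10 and 1 in the stretch near Gm43177. Those touched by a replicate 2 footprint numbered 1 in Ubtf, 0 in Pcdh10 and 0 near Gm43177.

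Of the 4110 replicate 1 peaks of 600 bp or wider, the 2760 members made up 67.2%. A further 1156 overlapped only replicate 2 peaks under 400 bp, and 194 overlapped none. The members had a median width of 720 bp in replicate 1, with quartiles of 640 and 840 bp. The widest replicate 2 peak over each had a median width of 640 bp, with quartiles of 520 and 800 bp. Across the 2760 members, Spearman's rho between replicates was 0.92 for the value and 0.33 for width. The width limits narrow the range of width, so these coefficients cannot be set against each other. Replicate 1 was the wider in 1798 members, the narrower in 837, and equal in 125, a tilt that the higher limit in replicate 1 favours.

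Wide regions were often piles of overlapping calls. Another peak of the replicate 1 list overlapped 58.4% of wide regions, against 5.46% of narrower peaks, a count that a longer region favours. The 2760 members formed 2548 separate stretches, and 405 of them overlapped another member. More than 1 replicate 2 peak lay over 1632 members. The deposited shorter peak list of replicate 1 had no peak in 73 members, 1 peak in 1117 and at least 2 in 1570. In replicate 2 the balance was the other way, with no peak of the shorter list in 151 members, 1 peak in 1422 and at least 2 in 1187. The cut rate was nevertheless raised along most of their length: a median of 98.8% of a member's bases in replicate 1, and 92.6% in replicate 2, had a false discovery rate under 0.001. These medians were 74.8% and 58.0% for narrower peaks. At promoters they were close, at 100% and 99.9% in wide regions and 100% in both replicates for narrower peaks. Outside promoters they were 83.3% and 65.8% in wide regions, with a lower quartile of 27.8% in replicate 2, against 56% and 22.5%.

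The members just inside the limit had values close to those of the peaks just outside it. The 284 members under 620 bp had median values of 1.12 in replicate 1 and 1.35 in replicate 2. The 340 peaks of at least 580 bp and under 600 bp that overlapped a replicate 2 peak of 400 bp or wider had medians of 1.14 and 1.35. Just inside lay regions at Lypd1, at the paired start sites of Zranb3 and R3hdm1, and at Tcf3, which encodes an E protein transcription factor. Just outside lay peaks at Iqgap2, Zeb1 and Mir7235.

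The 12 widest regions had centres at promoters or in exons (plot of the 12 widest regions). A region in the first place covered an exon of Pcdh10, which encodes a protocadherin of neuronal adhesion. It lay at chr3:45379441-45381940 and measured 2500 bp in replicate 1 and 1640 bp in replicate 2. At Ubtf, a transcription factor gene of RNA polymerase I, the region measured 1820 and 1680 bp. At Gfra1, the co-receptor gene for glial cell line-derived neurotrophic factor, it measured 1700 and 1800 bp. Both replicates thus gave these promoters a similar width, while Pcdh10 differed between them.

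Nr3c2, the gene of the mineralocorticoid receptor, had a region of 1640 bp in both replicates. Egr3, an immediate early zinc finger gene, had 1520 bp in replicate 1 and 1820 bp in replicate 2. A pair of overlapping members at Cdk6, a kinase gene of the G1 phase, measured 1540 and 1380 bp in replicate 1 and shared a replicate 2 peak of 1880 bp. Also among the 12 were the start sites shared by N4bp2 and N4bp2os, the promoters of the protocadherin gene Pcdh7, the ETS factor gene Elf2 and the synaptic adhesion gene Mdga2, and a Sowaha exon nearest to Gm9945. In replicate 1 the 12 spanned 1220 to 2500 bp and in replicate 2 they spanned 1440 to 2000 bp. All 12 overlapped another peak of the replicate 1 list.

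**Figure D1:**
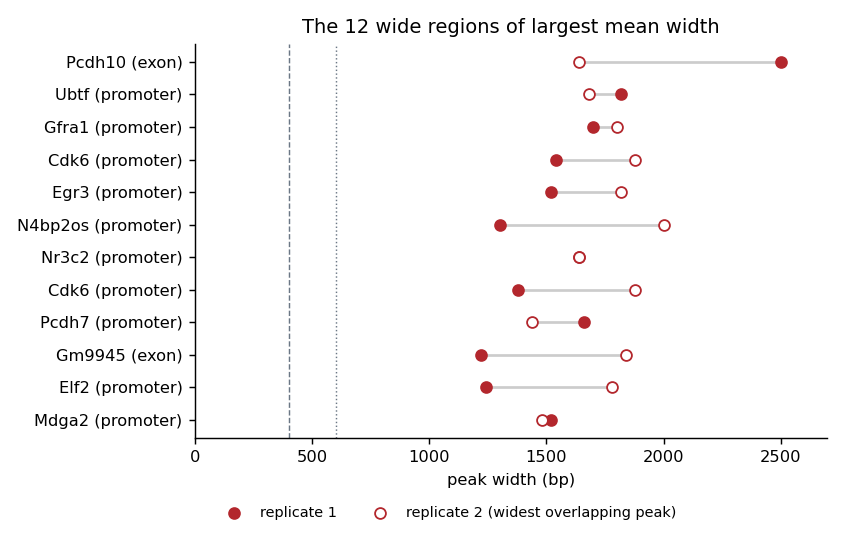
Width in bp of the 12 wide regions with the largest mean width, each on its own line, in replicate 1 (filled) and in the widest overlapping replicate 2 peak (open). Region names give the nearest gene and the place of the region's centre; the dotted line is the 600 bp limit in replicate 1 and the dashed line the 400 bp limit in replicate 2. Nr3c2 measured 1640 bp in both, and Pcdh10 measured 2500 bp in replicate 1 and 1640 bp in replicate 2.

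Wide regions lay mainly at promoters. A region was placed by its centre: at a promoter if within 1000 bp of any GENCODE M21 start site, and otherwise in an exon, in an intron or between genes. Promoters held 1873 wide regions, or 67.9% (exact 95% binomial interval 66.1 to 69.6%), against 34.0% of narrower peaks (33.6 to 34.3%). Introns held 14.2% of wide regions against 30.7% of narrower peaks, and intergenic sequence held 12.5% against 30.8%. Exons away from promoters held 5.40% against 4.52%. These intervals cover counting error only.

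By width class, each starting at the width named, the promoter share was 35.7% from 200 bp and 50.5% from 400 bp. It was 64.9% from 600 bp, 74.1% from 800 bp and 73.0% in the 315 regions of 1000 bp or wider. Classes from 600 bp also needed a replicate 2 peak of 400 bp or wider, while those below needed any replicate 2 overlap. With the 400 bp need kept and the replicate 1 limit lowered to 500 bp, the share over 4824 regions was 65.8%. How far this need enters the step at 600 bp was not tested. A start site lay inside 49.9% of wide regions against 18.6% of narrower peaks, a count that a longer region favours. The nearest start site of promoter regions belonged to a protein-coding gene in 89.1% of wide regions against 84.4% of narrower peaks.

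At promoters the wide regions reached further on both sides of the start site, which the width rule favours. Their median extent was 322 bp upstream and 457 bp downstream of the nearest start site, against 146 and 128 bp in narrower peaks. The centre lay a median of 56 bp downstream of the start site in wide regions, against a median of -6 bp, which is upstream, in narrower peaks. Start sites of different genes that pointed away from each other stood within 1000 bp of the centre in 14.7% of wide promoter regions (interval 13.1 to 16.4%), against 13.9% of narrower ones (13.4 to 14.3%). The intervals overlapped. With protein-coding start sites alone, the shares were 4.54% in wide and 5.58% in narrower promoter regions.

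The 887 wide regions outside promoters lay nearer to start sites than narrower peaks there, with a median distance of 7603 bp against 12939 bp. Since the centre set the place, a region counted here may still reach into a promoter window. Placement by any overlap, chosen after seeing the data, put 72.5% of wide regions and 35.1% of narrower peaks at promoters. How far this enters the contrasts outside promoters was not tested. Of the 887, 42.4% lay within 5000 bp of a start site, against 25.8% of narrower peaks. Their centres fell in coding sequence in 10.8% (interval 8.86 to 13.1%), against 2.86% of narrower peaks (2.71 to 3.01%). Coding sequence was counted after the widest exon regions had been seen. The 10 widest, a pair of them at Pcdh10, gave examples. Regions in exons of Pcdh10, of Mex3b, which encodes an RNA-binding protein, of Bhlhe22, a basic helix-loop-helix factor gene, and in the Sowaha exon had all 300 central bases in coding sequence. The region in the exon of Otx1, a homeobox gene, had 298. Others had their centres in introns of Dach1, a transcription factor gene, Dpf3, which encodes a chromatin remodelling subunit, and Sergef. At Dach1, 128 of the 300 central bases were still coding.

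The values of these 10 were moderate and the replicates ranked them differently. Bhlhe22 had a value of 0.820 in replicate 1 and 1.96 in replicate 2, the largest ratio between replicates among the 10. Mex3b had 1.40 and 1.96, and Pcdh10 had 0.997 and 1.35. Otx1 had 0.849 and 0.938. The intron region of Sergef, nearest to Gm45311, had a low CpG ratio of 0.299, unlike Mex3b at 0.686 and Bhlhe22 at 0.883.

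Wide regions were rich in CpG. The ratio of observed to expected CpG, which compares the count with that from the C and G content, had a median of 0.670 (quartiles 0.414 and 0.823) in wide regions and 0.348 (0.192 and 0.630) in narrower peaks. The gap was smaller within each place. Within promoters the medians were 0.750 in wide regions and 0.708 in narrower peaks, and outside promoters they were 0.364 and 0.261. In an equal window, the central 300 bp, the medians were 0.770 and 0.706 at promoters and 0.388 and 0.261 elsewhere. The median GC content was 61.9% in wide regions and 53.5% in narrower peaks.

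CpG-island composition, taken as a GC content of at least 50% and a CpG ratio of at least 0.6 in the central 300 bp, was present in 72.4% of wide promoter regions against 60.03% of narrower ones. Outside promoters it was present in 20.9% (interval 18.2 to 23.7%) of wide regions against 5.03% (4.83 to 5.23%) of narrower peaks. Inside the members, rho between CpG ratio and width was -0.01 across 1873 promoter regions and 0.19 across 887 regions elsewhere. Outside promoters the median ratio was 0.347 from 600 bp, 0.387 from 800 bp and 0.584 from 1000 bp.

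**Figure D2:**
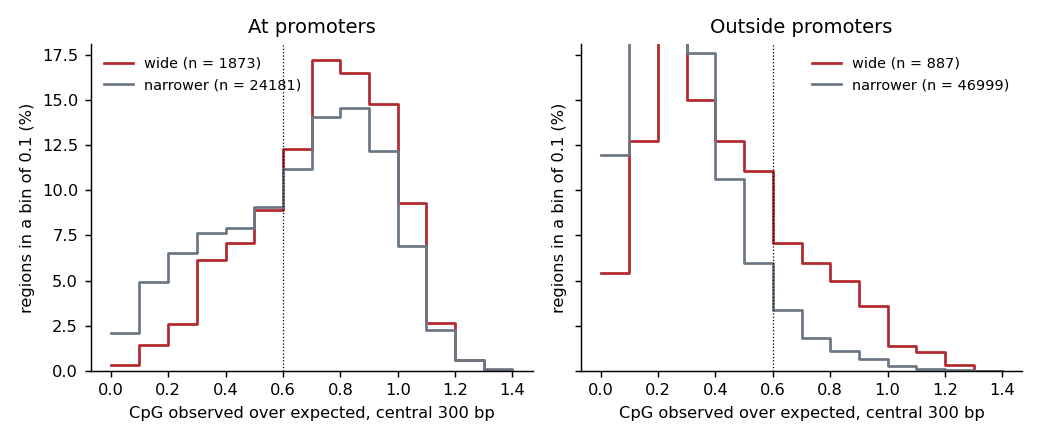
Share of regions (%) in each bin of 0.1 of the CpG ratio in the central 300 bp, for wide regions and narrower peaks, at promoters (left) and outside promoters (right). The dotted line marks 0.6. At promoters both sets peaked above the line, with medians of 0.770 in wide regions and 0.706 in narrower peaks; outside promoters the wide regions had a longer tail above it.

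Short factor motifs were searched on both strands of the central 300 bp. Most of the motifs searched were less frequent in the centres of wide promoter regions than in those of narrower ones. The NRF1 motif CGCATGCGC stood in 0.374% of 1873 wide promoter regions (interval 0.150 to 0.769%) against 2.28% of narrower ones (2.10 to 2.48%). The ETS motif CCGGAAG stood in 5.55% against 11.3%, and the NFY motif AGCCAAT in 3.36% against 7.33%. For CRE, with TGACGTCA, the shares were 0.748% and 2.26%, and for YY1, with AAGATGGCG, 0.801% and 2.13%. Motifs of other factors were lower too: AP-1, with TGANTCA, stood in 2.83% against 4.88%, the neuronal E-box CAGATGG in 4.16% against 6.10%, RFX, with GTTGCCA, in 3.10% against 4.56%, and the CTCF core in 13.1% (interval 11.6 to 14.8%) against 15.9% (15.4 to 16.4%). Among all replicate 1 promoter peaks the shares were 1.72% for NRF1, 9.26% for ETS, 6.36% for NFY, 1.77% for CRE, 1.64% for YY1, 5.39% for AP-1, 6.69% for the E-box, 4.42% for RFX and 14.4% for CTCF.

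Because the centre of a wide region sat elsewhere relative to the start site, the same search was made in 300 bp about the nearest start site, once per site, a window chosen after the first shares were seen. The order held for the motifs given next. NRF1 stood in 0.803% of 1743 sites of wide regions against 2.46% of 20875 sites of narrower peaks. ETS stood in 6.43% against 12.6%, NFY in 4.82% against 7.86%, CRE in 1.20% against 2.58% and YY1 in 1.49% against 2.81%. The Sp and Klf motif GGGCGGG ran the other way, at 48.2% about the start sites of wide regions against 40.6% in narrower peaks. In region centres it stood in 37.2% against 34.5%, and in 29.8% of all replicate 1 promoter peaks.

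Outside promoters the core motif of CTCF, the insulator protein, stood in 8.12% of wide regions (interval 6.41 to 10.1%), in 19.6% of narrower peaks (19.3 to 20.01%) and in 15.3% of all such replicate 1 peaks. About promoter start sites, unlike in region centres, the CTCF shares were close, at 13.9% and 13.5% with overlapping intervals. The Sp and Klf motif stood in 12.9% of wide regions outside promoters, 5.17% of narrower peaks and 4.28% of all such peaks. The AP-1 motif TGANTCA stood in 7.44%, 10.5% and 11.0%. The neuronal E-box CAGATGG was close in all 3 sets, at 15.3%, 17.2% and 16.6%. GC content differed between the sets, and its part in these shares was not tested.

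The value that the authors deposited per peak has no stated unit, and whether it is a maximum or a mean over the peak is not given in the sources used here. In tissue of mixed cells, fewer cells with an open site and less opening per cell cannot be told apart in it. Over all places wide regions had the higher medians, 1.11 in replicate 1 and 1.39 in replicate 2, against 0.813 and 0.897 in narrower peaks. At promoters the order was the reverse. Wide promoter regions had medians of 1.22 in replicate 1 and 1.59 in replicate 2, against 1.32 and 1.66 in narrower promoter peaks. Outside promoters the medians were 0.948 and 1.08 in wide regions against 0.693 and 0.734 in narrower peaks.

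Wide regions lay above the middle of the replicate 1 list, at a median percentile of 76.8 by value, but were not concentrated at its top. Of the 1000 highest replicate 1 peaks, 20 were wide regions, and of the 10000 highest, 259 were, set beside 2760 of 115072 in the whole list. The highest wide value was 7.59 in replicate 1, while the highest narrower peak had 55.9. Among promoter peaks of 200 bp or wider, the replicate 1 median was highest in the narrowest class, at 1.77 from 200 bp. It was 1.27 from 400 bp, 1.28 from 600 bp, 1.15 from 800 bp and 1.12 from 1000 bp. Only the classes from 600 bp needed a replicate 2 peak of 400 bp or wider. Within the members, rho between width and value was -0.06 in replicate 1 and 0.17 in replicate 2 across 2760 regions. At promoters rho was -0.16 in replicate 1 and 0.05 in replicate 2, and outside promoters it was 0.07 and 0.27. The relation was weak, and its sign in replicate 1 differed between places.

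**Figure D3:**
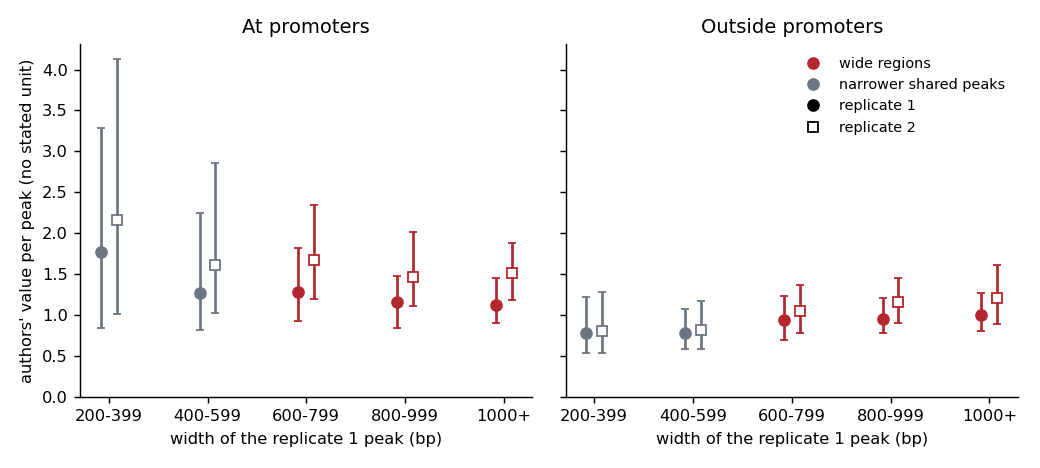
Median deposited value per peak (no stated unit; bars span the quartiles) by width of the replicate 1 peak in bp, at promoters (left) and outside promoters (right), in replicate 1 (circles) and replicate 2 (squares), with wide regions in red and narrower peaks in grey. The promoter medians of replicate 1 were 1.77 from 200 to under 400 bp and 1.12 from 1000 bp, and at promoters the quartile range was smaller in the wide classes. Only the classes from 600 bp needed a replicate 2 peak of 400 bp or wider.

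The 10 wide regions with the highest mean value were all at promoters, and most were narrower than the median member. The first stood at Ddx5, which encodes an RNA helicase, with a value of 7.59 in replicate 1 and 9.12 in replicate 2. It measured 620 and 640 bp and held 15 and 14 footprints. Camta1, a calmodulin-binding transcription activator gene, had 6.82 and 8.73. P4hb, a protein disulfide isomerase gene, had 6.78 and 8.07, and Nbr1, an autophagy receptor gene, had 6.33 and 8.44.

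Next came Csnk1g2, a casein kinase gene, with 6.72 and 7.95, and 1110020A21Rik beside the phosphatase gene Ppm1b with 6.37 and 8.12. Rap2a, a small GTPase gene, had 6.03 and 7.98. The phosphatase subunit genes Ppp1r10 and Ppp2r3d and the start sites shared by Mfsd11 and the splicing factor gene Srsf2 completed the 10. Replicate 2 was the higher in each of the 10. None of the 10 was among the 12 widest regions: the widest of them by replicate 1 was Camta1 at 860 bp.

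Footprints lay along the wide regions, and at promoters their density was highest within 50 bp of the centre. A wide region held a median of 7 footprints in replicate 1 and 6 in replicate 2, against 2 and 2 in narrower peaks. Per kb the medians were 8.47 in replicate 1 and 8.33 in replicate 2, against 9.71 and 8.33 in narrower peaks. At promoters the density was lower in wide regions, at 9.09 and 9.38 per kb, against 11.5 and 11.1 in narrower peaks as a whole. By width class, the promoter medians were 13.3 and 13.2 from 200 bp, and 9.62 and 9.52 from 400 bp. They were 9.51 and 10 from 600 bp, 8.51 and 8.565 from 800 bp, and 8.475 and 9 from 1000 bp. Wide regions of under 800 bp were thus close to the narrower peaks from 400 bp. Only the wide regions needed a replicate 2 peak of 400 bp or wider, so these classes differ in more than width. In 7.36% of wide regions and 14.5% of narrower peaks, replicate 1 had no footprint, a count that a longer region lowers. In the equal central window of 300 bp, 13.4% of wide regions (interval 12.2 to 14.8%) and 12.1% of narrower peaks (11.8 to 12.3%) had none.

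Within 50 bp of the centre of promoter regions, replicate 1 had 11.0 footprints per kb in wide regions and 13.6 in narrower peaks. At 250 to 300 bp from the centre it had 8.20 in wide regions against 2.78, and at 450 to 500 bp 3.31 against 2.14. The distances beyond the edge of most narrower peaks lie outside those peaks, so this comparison follows from width. Density went with value: across 2760 wide regions, rho between footprints per kb and value in replicate 1 was 0.58. The part of cut depth in these footprint counts was not tested.

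Of the replicate 1 footprints in wide regions, 32.0% (interval 31.3 to 32.7%) had at least 50% of their length under a replicate 2 footprint, against 39.8% (39.6 to 40.1%) in narrower peaks. Over all replicate 1 footprints, inside and outside shared peaks, the share was 31.8%. At promoters the shares were 35.0% in wide regions and 47.6% in narrower peaks, and outside promoters 24.7% and 33.8%. At promoters the recurring share was thus lower in wide regions, and any relation between this share and footprint density was not tested.

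**Figure D4:**
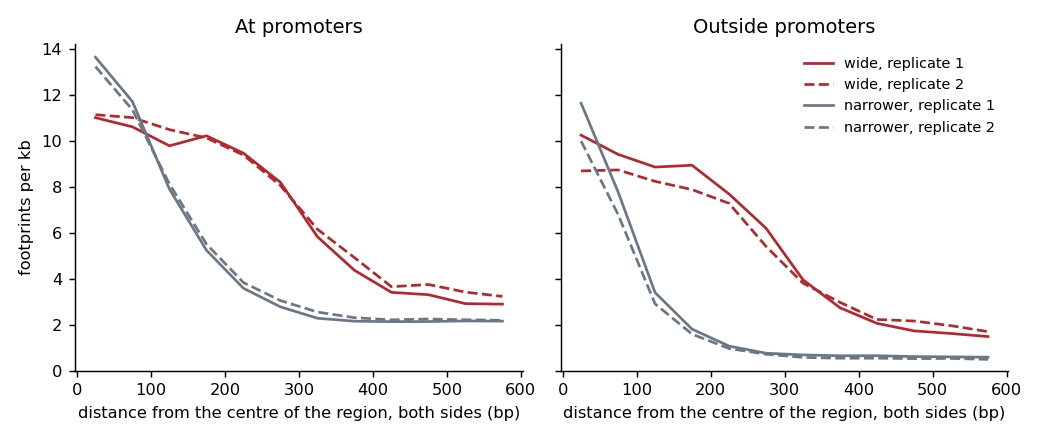
Footprints per kb by distance from the centre of the region in bp (both sides summed), at promoters (left) and outside promoters (right), in replicate 1 (solid) and replicate 2 (dashed), with wide regions in red and narrower peaks in grey. Wide promoter regions had 11.0 per kb in replicate 1 within 50 bp of the centre and 8.20 at 250 to 300 bp; narrower peaks had 13.6 and 2.78.

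The protein-coding genes with a wide region were longer than others. A gene counted if the centre of a wide region lay within 1000 bp of any of its start sites. This held for 1615 of 21911 protein-coding genes, or 7.37%, and for 11.6% of the 13962 with any shared peak there. Those 1615 genes had a median length of 53.4 kb, against 24.5 kb in the other genes with a shared peak. Genes of at least 100 kb were 34.4% of them, against 13.4% of the others. The median number of start sites was 5 in both sets.

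Against that background of 11.6%, the listed gene groups differed in their shares, which are counts of few genes and were not tested. Of 26 forebrain transcription factor genes, all with a shared promoter peak, 7 had a wide region: Bcl11a, Emx2, Lhx2, Lmo4, Nfib, Nfix and Pou3f2. The widest of these were a region of 979 bp in replicate 1 and 960 bp in replicate 2 at Nfib, with values of 1.06 and 1.64, and one of 880 and 960 bp at Pou3f2, with 1.85 and 2.05. Bcl11a had 681 and 1150 bp, with values of 1.64 and 1.98. Nfib and Lhx2 each had 3 members.

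Of 24 synaptic and neuronal genes, 5 had a wide region, among them Grin2b, Nefl, Nlgn1 and Shank3. Nlgn1, a postsynaptic adhesion gene, had 920 bp in replicate 1 and 800 bp in replicate 2, and Nefl, the neurofilament light chain gene, had 840 and 860 bp. The values were 1.31 and 1.57 at Nlgn1, and 1.83 and 2.19 at Nefl. Of 20 immediate early genes 3 had one, Egr3, Fosl2 and Nr4a3, and 4 of the members lay at Egr3.

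Of 24 splicing and RNA-binding genes, 5 had a wide region. Hnrnpd had 800 bp in both replicates, with values of 2.75 and 3.94, and Ddx5 is given above. Hnrnpa1 and Srsf2 were also among them. The values given for Hnrnpd and Ddx5 exceeded those given for Nlgn1 and Nefl, while their widths in replicate 1 were smaller. This order did not hold for every member of these genes. Another Hnrnpd member, of 600 bp in replicate 1, had values of 1.24 and 1.33, below those given for Nlgn1. Another Nlgn1 member, of 820 bp in replicate 1, had 1.73 and 2.16. Among the other basic groups, 3 of 16 translation factor genes (Eef1a1, Eif4g2 and Pabpc1), 3 of 26 chromatin regulator genes (Chd4, Dnmt3a and Kdm2b), 1 of 18 chaperone genes (Xbp1), 1 of 16 proteasome and ubiquitin genes (Ube2d3), 1 of 14 small RNA hosts (Dleu2) and 1 of 24 ribosomal protein genes (Rps19) had one.

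Of 10 astrocyte markers 7 had a shared promoter peak and 4 a wide region. Id4, an inhibitor of basic helix-loop-helix factors, had 1360 bp in replicate 1 and 500 bp in replicate 2, with no footprint in either. Slc1a2, the glial glutamate transporter gene, had 620 and 680 bp, with values of 1.83 and 2.33. Aldoc and Sox9 were the other members. Of 10 oligodendrocyte lineage markers 5 had a shared promoter peak and 1 a wide region, Olig2 with 902 and 540 bp. Of 11 microglial and vascular markers 3 had a shared promoter peak and none a wide region.

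Gene families taken by symbol after a first look at the members gave further counts, which carry no weight as a test. Of 93 potassium channel genes 71 had a shared promoter peak and 18 a wide region, among them Kcns2 with 760 bp in replicate 1 and 1400 bp in replicate 2 and Kcna2 with 1000 bp in both. Of the 6 Slitrk genes, which encode neuronal adhesion proteins, 4 had one, and the widest, at Slitrk5, measured 1400 and 1380 bp with values of 1.44 and 1.79. Of 20 semaphorin genes 6 had one, and of 19 protocadherin genes with a shared promoter peak 6 did. By contrast 1 of 80 open cytosolic ribosomal protein genes had one, Rps19, with 740 and 700 bp and values of 4.48 and 5.58. Clustered histone genes had 4 of 58, zinc finger genes 29 of 341, or 8.50%, and solute carriers 38 of 247.

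**Figure D5:**
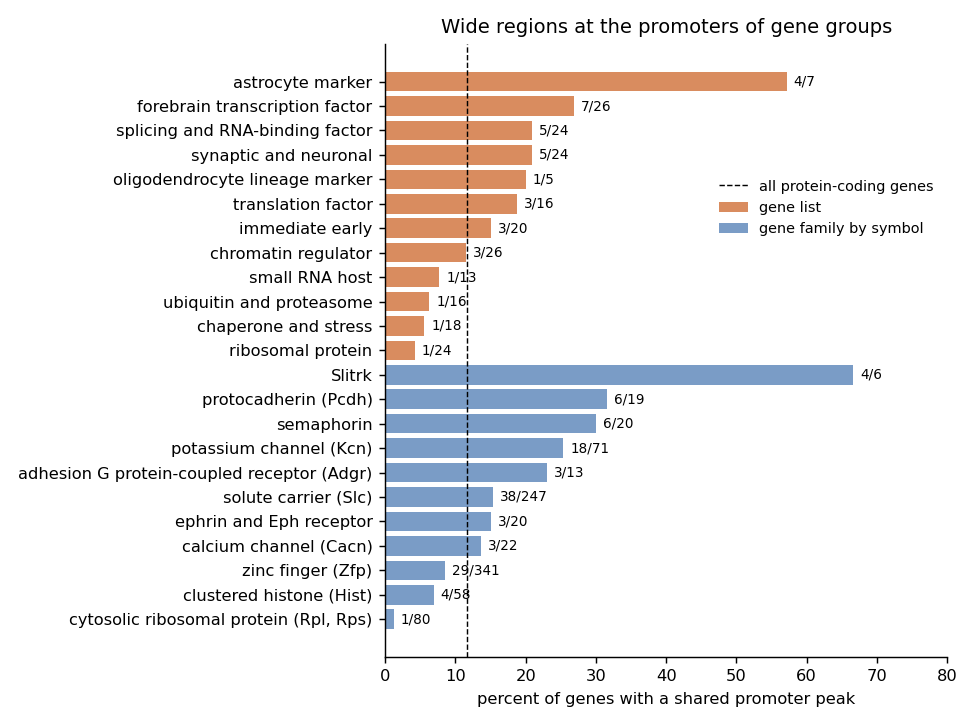
Percent of genes with a wide region at a promoter, among the genes of each group with a shared promoter peak, with both counts beside the bar; groups with 4 or fewer such genes are left out. Gene lists are orange, families by symbol blue, and the dashed line is the share of all protein-coding genes, 11.6%. Slitrk (4 of 6) and astrocyte markers (4 of 7) lay highest and cytosolic ribosomal protein genes (1 of 80) lowest.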

How the data were processed

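DNase-seq peaks, footprints and false discovery rates of 2 hippocampal libraries were used. Per the file headers and the deposited file lists, each file was made from 1 library aligned to mm10, so calls were made per replicate; the aligner and peak caller were not given in the sources used here. The authors deposited 1 signal value per peak with no stated unit or normalization; it was used to describe and rank peaks. Files of p-value type, as deposited, hold false discovery rates: cut rate stretches are listed under 0.05, and every footprint carries 0.01. Read depth is not given in these files and is unknown, so no limit from it was set. The longer peak list of each replicate, with 115072 peaks in replicate 1 and 95711 in replicate 2, was used.

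Regions overlapped if they shared at least 1 bp. The width and value in replicate 2 are those of the widest overlapping peak. Genes came from GENCODE M21 and sequence from RefSeq GRCm38.p6. Footprints were counted by their centres. Shares have exact 95% binomial (Clopper-Pearson) intervals; no test over regions or gene groups was made. Regions named were the 12 widest by mean width, the 10 highest by mean value, the 10 widest outside promoters, the widest of each gene list, and 3 on each side of the width limit, each called by its nearest start site. Sequences were the centres of the widest regions without UTR bases. Some regions and sequences that this rule takes are not reported here. The members, gene lists and motifs were chosen with earlier results of these data known. Interval, overlap and sequence functions were tested on simulated data. Python 3.11.15, numpy 2.4.6, pandas 2.3.3, scipy 1.17.1 and matplotlib 3.10.9 were used. Alternatives were other width limits, the shorter lists, swapped replicates, 1 replicate alone, and other promoter and footprint definitions.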

Additional observations from a re-analysis of the deposited data

How the results depend on the processing

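No paired analysis was possible because there was 1 group. The 2760 wide regions numbered 1482 in the shorter lists, 929 at a replicate 1 limit of 800 bp, 4824 at 500 bp and 1731 with a replicate 2 limit of 600 bp, and 3626 to 4110 with 1 replicate alone. With these same settings in this order, the promoter share was 81.1, 73.7, 65.8 and 72.6%, the CpG ratio 0.752, 0.704, 0.650 and 0.700, and the footprints per kb 10.6, 8.16, 8.64 and 8.97; with 1 replicate alone they were 59.3 to 68.6%, 0.575 to 0.677 and 8.055 to 8.405. Swapping the replicates gave 71.7%, 0.705 and 9.36. A promoter window of 500 bp gave 54.6% (27.6% in narrower peaks), 2500 bp gave 77.0% (42.4%), and protein-coding start sites alone gave 61.3% (27.6%). Placement by any overlap, chosen after seeing the data, gave 72.5% (35.1%). The wide share stayed above the narrower share in these 4 placements. Footprints per kb were 8.57 when a replicate 2 peak had to cover 50% of the region, 8.57 with 1 region per separate stretch (chosen after seeing the data), 8.33 from replicate 2 and 1.68 when only footprints with at least 50% of their length under one of replicate 2 were counted. The median value was 1.41 in the shorter lists, 1.435 with swapped replicates, 1.39 in replicate 2, and 0.983 to 1.31 with 1 replicate alone. Divergent start sites, counted up to 1000 bp beyond the region's ends, stood in 16.9% of wide promoter regions, in 19.1% with the shorter lists, in 5.29% with protein-coding start sites alone, in 14.7% within 1000 bp of the centre (chosen after seeing the data), and in 16.3 to 16.5% with 1 replicate alone. The cause of these shifts was not tested. With 2 replicates of 1 group and unknown depth, spread between animals cannot be estimated well, and a region missed in a replicate may be a matter of depth or of the limit on width.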
